A study of Homo sapiens with 16 samples.

Results

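The genes described here are 45 genes of the DNA replication machinery, of 35052 genes to which the deposited transcripts could be assigned. They are a list of origin, helicase, polymerase, clamp and fork genes given by name, and each gene's level is the sum of the estimated reads of its transcripts. RNA sequencing was run on K562, an established human leukaemia line labelled WT for genotype, during treatment with 25 nM PMA (phorbol 12-myristate 13-acetate), an activator of protein kinase C that the labels tie to megakaryocyte differentiation. Libraries were made from total RNA after removal of ribosomal RNA, 2 at each time point and 16 in all, at 0 h (the untreated control) and after 0.5, 1.5 and 3 h, then 6 and 24 h, then 48 and 72 h with PMA. The same line, genotype and medium with serum were shared by all groups, and the medium was replaced after 24 and 48 h of PMA, a step that the 0 to 6 h libraries did not have. No untreated cultures of matching age were analysed here, so time in culture and PMA cannot be told apart. The comparisons ask when, and how evenly, the transcripts of the replication machinery change as K562 cells are driven towards megakaryocytes.

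DNA replication begins where the origin recognition complex (ORC) marks an origin and CDC6 and CDT1 load the ring-shaped MCM2-7 helicase onto it in G1. In S phase CDC45 and the GINS complex join MCM2-7 to make the active helicase, DNA polymerase alpha-primase starts each strand, polymerases delta and epsilon extend them on the PCNA clamp loaded by replication factor C (RFC), FEN1, DNA2 and LIG1 finish the lagging strand, and RPA covers single-stranded DNA. Many of these genes are known targets of the E2F transcription factors, which drive entry into S phase. Megakaryocytes differ from most cells in that they go on replicating their DNA without dividing (endoreplication).

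The promoters of the genes are shown first because E2F sites are the feature for which this gene class is known. RefSeq windows (GRCh38.p14, 300 bases, from 250 before to 50 after a transcription start) were matched by symbol for 38 of the 45 genes, and 7 (GINS4, MCM5, MCM4, RPA3, DNA2, RPA2 and POLD3) had no entry. The E2F letters TTTGGCGC, TTTCGCGC or TTTCCCGC, searched on both strands, stood in the windows of 20 of the 38 genes (52.6%), against 902 of 27305 genes in the whole table (3.30%). Matches on opposite strands can overlap, so 1 place can count as more than 1 match. Below are the 170 bases from 160 before to 10 after the start, 5′ to 3′ on the gene's strand, with the E2F letters in capitals. MCM6 (chr2:135876434-135876603, minus strand) carries 4 matches in 2 places, each with overlapping matches on both strands, and MCM7 (chr7:100101388-100101557, minus), PCNA (chr20:5126613-5126782, minus), POLE (chr12:132687333-132687502, minus), GINS3 (chr16:58392311-58392480, plus) and CLSPN (chr1:35769969-35770138, minus) carry 1 each in the stretch shown. ORC1 (chr1:52404414-52404583, minus) and PRIM1 (chr12:56752314-56752483, minus) hold none of these letters in full. They are shown for contrast and were picked because both had their lowest mean at 6 h. Genes that carry the letters, among them MCM2, MCM6, ORC3, POLA2 and TIPIN, were lowest at 6 h too. ORC1 has ttggcgc and PRIM1 has ttcccgc, which lack only the first T, and such shorter forms were not counted for any gene. MCM7 and PCNA have other annotated starts, and the window with a match is the one printed.
MCM6: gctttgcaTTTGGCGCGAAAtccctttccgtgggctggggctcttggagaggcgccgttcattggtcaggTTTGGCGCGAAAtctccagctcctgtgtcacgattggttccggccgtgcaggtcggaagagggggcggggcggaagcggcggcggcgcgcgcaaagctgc
MCM7: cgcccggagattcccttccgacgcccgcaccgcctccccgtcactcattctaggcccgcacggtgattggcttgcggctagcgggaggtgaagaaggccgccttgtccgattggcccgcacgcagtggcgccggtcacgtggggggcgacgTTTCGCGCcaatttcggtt
PCNA: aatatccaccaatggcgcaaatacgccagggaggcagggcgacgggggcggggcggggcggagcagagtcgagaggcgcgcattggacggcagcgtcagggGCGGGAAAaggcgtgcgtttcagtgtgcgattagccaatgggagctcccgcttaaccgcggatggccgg
POLE: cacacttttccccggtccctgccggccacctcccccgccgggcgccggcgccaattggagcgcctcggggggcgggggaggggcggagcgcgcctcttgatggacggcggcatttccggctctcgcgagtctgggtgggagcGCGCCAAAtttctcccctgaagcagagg
GINS3: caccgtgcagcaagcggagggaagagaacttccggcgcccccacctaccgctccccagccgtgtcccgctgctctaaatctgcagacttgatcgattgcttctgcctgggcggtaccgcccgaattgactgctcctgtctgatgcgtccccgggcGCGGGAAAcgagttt
CLSPN: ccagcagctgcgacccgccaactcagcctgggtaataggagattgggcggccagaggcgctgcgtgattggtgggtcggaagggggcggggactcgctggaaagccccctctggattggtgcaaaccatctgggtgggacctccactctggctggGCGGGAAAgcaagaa
ORC1: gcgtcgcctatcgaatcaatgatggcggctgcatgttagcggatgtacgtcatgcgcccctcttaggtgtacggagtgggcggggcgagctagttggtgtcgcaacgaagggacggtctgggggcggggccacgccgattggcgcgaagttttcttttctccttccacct
PRIM1: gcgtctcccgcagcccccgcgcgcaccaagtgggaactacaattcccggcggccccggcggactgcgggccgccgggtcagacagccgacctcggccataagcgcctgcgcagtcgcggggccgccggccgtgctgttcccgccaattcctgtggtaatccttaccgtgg
Among the same 38 genes, CCAAT stood in 24 windows (63.2%, against 39.7% of all genes), GGGCGG in 29 (76.3% against 48.3%), TGACGTCA in 3 (7.89% against 2.25%), the EGR letters GCGTGGGCG or GCGGGGGCG in 4 (10.5% against 6.95%) and TTTGAA, a core of the cell cycle homology region of mitotic promoters, in 0 (against 18.2%). These are matches of letters, not measured sites.

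Library totals ran from 27285773 to 54056289 estimated reads, and every one of the 45 genes passed the low-count filter, with no fewer than 252 reads in any library. The 0 h replicate 2 library stands apart. Its mean fragment length, read as the gap between length and effective length, was 199 nt, against 229 to 248 nt in the other replicate 2 libraries and 210 to 221 nt in replicate 1, and its difference from 0 h replicate 1 correlated with transcript GC content at r = 0.73 across 9975 genes, which are not independent. Fold changes at 0.5 h against 0 h also correlated with GC content, at r = −0.76 across the same genes. Counts of calls against 0 h are therefore given also without 0 h replicate 2. Without 0 h replicate 1, the outlying library is the only 0 h baseline. K562 identity was checked on markers fixed in the design. The 8 erythroid markers summed to 1812 to 2091 CPM (read counts scaled to the size of the library) at 0 h. They summed to 963 to 1044 after 24 h and 1242 to 1691 after 72 h, and from 24 to 72 h 6 rose and 1 fell (background 13.9% and 12.4%). The 9 megakaryocyte markers summed to 70.0 to 105 at 0 h and 5458 to 6209 after 72 h, although PF4 and SELP stayed at or under 0.0937 CPM. Of the 7 tested, 5 rose at 72 h (background 31.7%), with THBS1 at a log2 fold change of 10.3 and ITGB3 at 9.48. ITGA2B (0.10) and GP1BB (0.42) were not called at 72 h. At 24 h 4 rose (31.7%) and 2 fell (26.6%), ITGA2B (−2.14) and TUBB1 (−0.77). The 4 lymphoid markers summed to 182 to 213 CPM at 0 h and 100.05 to 142 at 72 h, nearly all of it PTPRC, while MS4A1 was at no more than 0.0297 CPM and CD3E at no more than 0.344 CPM. The 3 fibroblast markers summed to 10.9 to 13.0 CPM at 0 h, 121 after 24 h and 217 to 235 after 72 h, carried by COL1A1, while DCN was at 1.09 to 2.46 CPM throughout. The part of these markers in the results on replication genes was not tested.

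Most replication transcripts fell, some reaching their lowest level at 6 h and others after 24 h, while 5 of the 45 rose after 6 h. Against 0 h, none of the 45 was called at 0.5 h by edgeR's quasi-likelihood test at a Benjamini-Hochberg adjusted p under 0.05 (background 0.171% of 17559 genes), none was called by DESeq2, and 13 had an unadjusted p under 0.05. Without 0 h replicate 1, 11 were called at 0.5 h (8 higher, 3 lower). At 1.5 h POLA2 and POLD1 were called lower (background lower 8.05%, higher 9.05%, either 17.1%), and this count was 0 without 0 h replicate 2. At 3 h 16 changed (background 42%), of which 13 fell (20.5%) and 3 rose (21.5%), against 20 and 9 with GC trends removed, 29 and 1 with libraries scaled to total counts, and 7 and 1 in a fit to the 0 and 3 h libraries alone. Shares of all genes under these other settings are not given here, so those counts describe the 45 genes alone. At 6 h 35 changed (background 57.2%), of which 30 fell (29.4%) and 5 rose (27.8%). At 24 h 38 changed (background 58.3%), of which 36 fell (26.6%) and 2 rose (31.7%). At 48 h 34 changed (background 54.3%), of which 31 fell (24.1%) and 3 rose (30.2%), and at 72 h 37 changed (background 58.6%), of which 35 fell (26.9%) and 2 rose (31.7%). Over the whole course 44 of 45 differed between time points (background 82.9%), and ORC4 was the exception (adjusted p = 0.31).

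Over the 45 genes the median log2 fold change was 0.00 at 0.5 h, −0.05 after 1.5 h, −0.19 after 3 h, −0.47 after 6 h, −0.70 after 24 h, −0.43 after 48 h and −0.58 after 72 h. The median of all genes tested lay between −0.03 and 0.00 at each of these times. All these contrasts use the same 0 h libraries, so they are not independent of each other. Within replicate 1 the median difference of the 45 was −0.50 at 6 h, −0.81 after 24 h and −0.59 after 72 h, and within replicate 2 it was −0.48, −0.76 and −0.69. Without 0 h replicate 2 none was called at 0.5 or 1.5 h, and the counts were 12 lower and 4 higher at 3 h, 31 and 5 after 6 h, 36 and 2 after 24 h, 30 and 2 after 48 h, and 35 and 2 after 72 h. In RNA from whole cultures, fewer cells in S phase and less of a transcript in each cell cannot be told apart. The labels do not say whether the 2 libraries of a time point came from separate cultures, so the p-values measure only the spread between these libraries.

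Direct comparisons of neighbouring phases gave the shape of the course. From 3 to 6 h 29 genes changed (background 41.2%), of which 24 fell (22.1%) and 5 rose (19%). From 6 to 24 h 35 changed (background 56.6%), of which 22 fell (25.8%) and 13 rose (30.8%). Of the 30 replication genes lower at 6 h, 12 rose from 6 to 24 h and 10 fell again. Among all 5160 genes lower at 6 h, 59.3% rose and 9.50% fell again, so a fall at 6 h followed by a rise is common among all genes. Both steps share the 6 h libraries. From 24 to 72 h 10 changed (background 26.3%), of which 8 rose (13.9%) and 2 fell (12.4%). This last count of 10 was 3 in all without either of the 24 h libraries, 5 without 72 h replicate 1, and 15, all of them higher, with libraries scaled to total counts. The mean level was lowest at 6 h for 14 genes (ORC1, ORC2, ORC3, ORC5, MCM2, MCM6, POLA2, PRIM1, RFC1, RFC4, RFC5, RPA1, TIMELESS and TIPIN), 13 of them in each replicate set taken alone. It was lowest at 24 h for 23 genes, 19 of them in each replicate set, after 72 h for 5 (POLD2, POLE2, RFC2, LIG1 and RPA3), after 3 h for POLD3 and RPA2, and after 1.5 h for GINS3. The highest mean over the lowest ranged from 1.29-fold for RFC2 to 9.27-fold for GINS3.

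**Figure D1:**
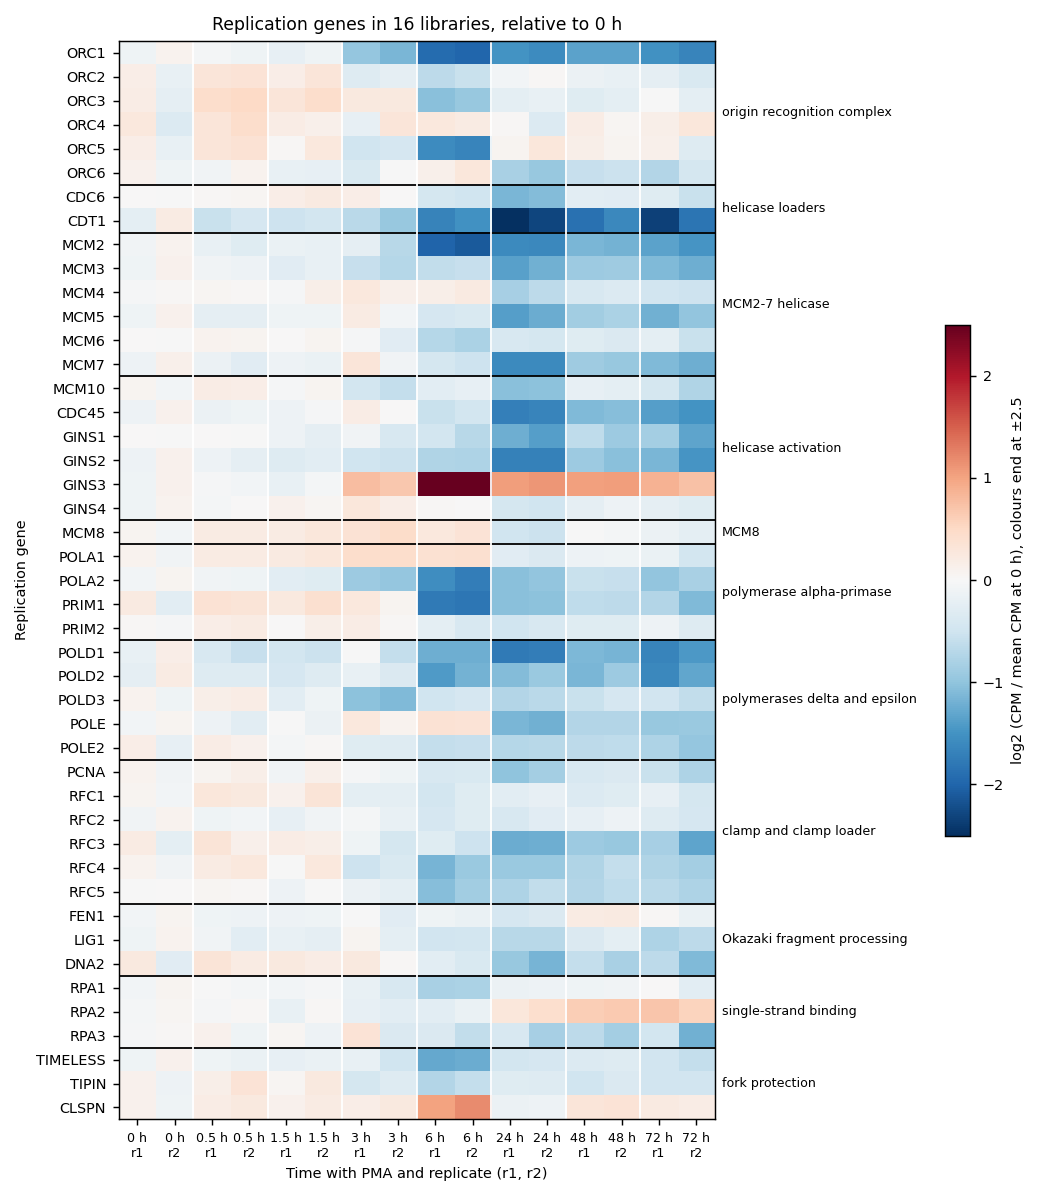
Log2 ratio of each library's CPM to the mean CPM at 0 h for the 45 replication genes (rows, grouped by role) in 16 libraries (columns, by hours with PMA and replicate). Colours end at ±2.5, so GINS3 at 6 h (log2 fold change 3.09) is at the end of the scale, and deep falls stand at MCM2 and ORC1 after 6 h and at CDT1 after 24 and 72 h.

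The 6 subunits of ORC did not move together. ORC1, the subunit whose protein is known to be degraded after G1 and which drives the assembly of the complex, fell most. Its level in replicates 1 and 2 was 119 and 135 CPM at 0 h, 123 and 118 after 0.5 h, 110.3 and 118 after 1.5 h, 65.1 and 57.8 after 3 h, 33.5 and 32.3 after 6 h, 44.9 and 42.5 after 24 h, 50.2 and 50.1 after 48 h, and 44.6 and 40.2 after 72 h. Every library from 3 h on lay under every library up to 1.5 h, and 6 h was the lowest time. The log2 fold change at 6 h was −1.95 (SE 0.10, adjusted p = 1.16e-09), or 3.86-fold lower, and at 72 h −1.58 (SE 0.10, adjusted p = 7.21e-09). From 6 to 24 h ORC1 rose by 0.41 (SE 0.10, adjusted p = 0.0027), so it regained little of its loss.

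ORC5, an ATP-binding subunit of the complex, showed a passing dip. It was at 36.0 and 28.0 CPM at 0 h, 39.4 and 41.0 after 0.5 h, 32.8 and 38.3 after 1.5 h, 22.6 and 23.9 after 3 h, 10.8 and 10.2 after 6 h, 33.4 and 39.0 after 24 h, 35.6 and 33.7 after 48 h, and 35.1 and 25.7 after 72 h. The 6 h libraries lay apart from all others, and the 24 h libraries overlapped those at 0 h. Its log2 fold change was −1.61 at 6 h (SE 0.16, adjusted p = 1.13e-06), 1.79 from 6 to 24 h (adjusted p = 7.10e-07) and 0.18 at 24 h against 0 h (adjusted p = 0.32). The core subunits ORC2 and ORC3 were also called lower at 6 h, ORC2 by 0.61 on the log2 scale, and higher from 6 to 24 h (0.59 and 0.78), and neither was called at 24 h against 0 h (−0.02 and −0.22). Libraries at 6 h stand in both of these contrasts.

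ORC6, the smallest and most loosely bound subunit, took another course. It was at 119.5 and 103 CPM at 0 h, 105 and 118 after 0.5 h, 98.1 and 97.2 after 1.5 h, 85.0 and 109.8 after 3 h, 121 and 135 after 6 h, 63.2 and 58.0 after 24 h, 74.8 and 76.6 after 48 h, and 67.3 and 82.5 after 72 h. The 6 h libraries were above both 0 h libraries without passing the test (0.20, adjusted p = 0.20, and −0.17 when scaled to total counts), and those at 24 h were the lowest of all (−0.88, SE 0.13, adjusted p = 6.73e-05). Most ORC6 reads were assigned to a transcript annotated as a retained intron, ORC6-207, with 69.5% at 0 h and 65.8% at 6 h. The coding transcript ORC6-201 was at 13.7 ± 0.66 TPM (a level per transcript length; SD, n = 2) at 0 h, 21.8 ± 0.78 after 6 h and 8.55 ± 0.41 after 24 h. ORC4 was not called at any time, and it overlaps MBD5 and ACVR2A in the annotation, whose reads cannot be told apart from its own without strand.

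Both helicase loaders fell, and CDT1 fell further than any other gene of the set at 24 h. CDT1 brings MCM2-7 to the origin and is destroyed in S phase to prevent a second round. It was at 197 and 269.6 CPM at 0 h, 158 and 175 after 0.5 h, 164 and 169.6 after 1.5 h, 147 and 121 after 3 h, 73.4 and 82.1 after 6 h, 39.2 and 47.4 after 24 h, 63.9 and 76.5 after 48 h, and 46.4 and 66.3 after 72 h. All libraries from 0.5 h on were under both 0 h libraries, although CDT1 was not called before 3 h. Those from 3 h on were also under all at 0.5 and 1.5 h, and the 2 at 0 h differed from each other by more CPM than any later pair. This was a log2 fold change of −1.59 at 6 h (SE 0.18, adjusted p = 4.69e-06) and −2.43 at 24 h (SE 0.19, adjusted p = 1.03e-07), a 5.39-fold decrease.

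CDC6, the ATPase that works with ORC to load the helicase, was lowest at 24 h and then rose again. It was at 116 and 114 CPM at 0 h, 118 and 119 after 0.5 h, 129 and 135 after 1.5 h, 129 and 116 after 3 h, 84.1 and 81.7 after 6 h, 52.2 and 53.8 after 24 h, 95.4 and 94.6 after 48 h, and 92.8 and 77.9 after 72 h. The 24 h libraries were the lowest, and those at 48 and 72 h lay between them and 0 h with no overlap. The fitted change (log2) was −1.12 at 24 h (SE 0.09, adjusted p = 1.98e-07) and 0.69 from 24 to 72 h (SE 0.09, adjusted p = 1.15e-04), leaving −0.43 at 72 h (adjusted p = 0.0011).

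All 6 MCM2-7 genes were lower at 24, 48 and 72 h (background lower 26.6%, 24.1% and 26.9%). Their lowest means came at 6 h for MCM2 and MCM6 and at 24 h for the other 4. The ring holds 1 copy of each protein. MCM2 fell furthest. It was at 155 and 177 CPM at 0 h, 147 and 135 after 0.5 h, 149 and 147 after 1.5 h, 143 and 103 after 3 h, 41.3 and 39.0 after 6 h, 55.5 and 54.3 after 24 h, 75.3 and 73.7 after 48 h, and 65.9 and 59.8 after 72 h. The libraries from 6 h on were all under those up to 3 h, and the 6 h pair was the lowest. Its log2 fold change was −2.05 at 6 h (SE 0.13, adjusted p = 1.42e-08), 4.14-fold lower, and −1.40 at 72 h (SE 0.13, adjusted p = 5.08e-07). The rise from 6 to 24 h was 0.45 (adjusted p = 0.0095), and it lost its call with GC trends removed (0.19, adjusted p = 0.16) or without replicate 2 at 24 or 6 h (adjusted p = 0.054 and 0.077).

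MCM7, a subunit of the same ring, was lowest at 24 h. It was at 423 and 505 CPM at 0 h, 417 and 382 after 0.5 h, 426 and 414 after 1.5 h, 575 and 438 after 3 h, 342 and 326 after 6 h, 154 and 153 after 24 h, 252 and 241 after 48 h, and 215 and 199 after 72 h. The 24 h libraries were the lowest and the 3 h libraries the most spread. On the log2 scale the change was −0.47 at 6 h (adjusted p = 0.0043), −0.24 with GC trends removed (adjusted p = 0.050), and −1.59 at 24 h (SE 0.12, adjusted p = 1.13e-07). From 24 to 72 h it rose by 0.43 (SE 0.12, adjusted p = 0.019).

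The other 4 subunits lay between these courses. MCM4 was not called at 6 h (0.18, adjusted p = 0.10, and −0.18 when libraries were scaled to total counts) and was lower at 24 h (−0.74). MCM3 fell by 0.60 at 6 h and 1.27 at 24 h, and MCM5 by 0.40 and 1.31, the first of which was not called with GC trends removed (−0.09, adjusted p = 0.23) or without 0 h replicate 2 (−0.29, adjusted p = 0.070). MCM6 fell by 0.75 at 6 h and 0.42 at 24 h.

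Levels per length show how far apart the ring's transcripts stood. Summed over coding transcripts of at least 1000 nt, the mean TPM at 0 h ran from 72.1 for MCM2 through 86.3 for MCM5, 86.6 for MCM6, 107 for MCM4 and 123 for MCM7 to 137 for MCM3, a ratio of 1.90 between the ends. At 6 h MCM2 was at 14.2 ± 1.8 TPM (SD, n = 2) and MCM4 at 99.2 ± 8.3, a ratio of 6.97. The ratio was 2.72 at 24 h and 2.76 at 72 h, with MCM2 lowest and MCM4 highest both times. MCM5 and MCM6 at 0 h, and MCM4 and MCM7 at 6 h, did not differ beyond their spread. Nor did MCM4 and MCM6 at 24 h (61.7 ± 2.5 and 60.7 ± 6.9) or MCM4 and MCM7 at 72 h (80.1 ± 6.2 and 77.3 ± 3.0). Part of the MCM7 reads was assigned to a retained-intron transcript, MCM7-210, with 46.2% at 0 h and 29.8% after 6 h, and the coding MCM7-201 went from 119 ± 1.2 TPM at 0 h to 92.5 ± 1.7 after 6 h and 47.1 ± 3.2 after 24 h.

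**Figure D2:**
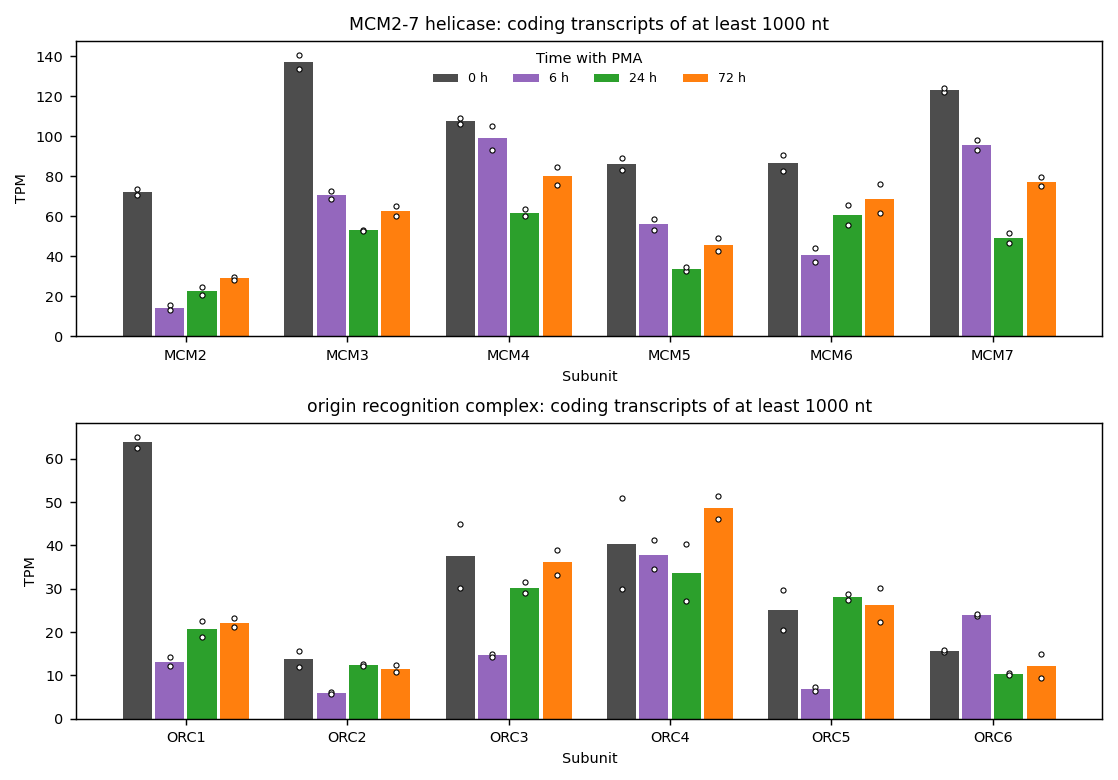
Mean TPM (bars, axis from 0) and the 2 libraries (points) of coding transcripts of at least 1000 nt for the MCM2-7 and ORC subunits at 0, 6, 24 and 72 h. MCM2 is the lowest of its ring at every time shown, and ORC1 goes from 63.8 TPM, the highest of the ORC subunits at 0 h, to 13.2 TPM at 6 h.

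Of the 6 genes that turn the loaded ring into an active helicase, 5 were lower at 24 h (background 26.6%) and GINS3 was higher (31.7%). GINS3 encodes 1 of the 4 subunits of GINS, which links CDC45 to MCM2-7. It was at 20.3 and 23.3 CPM at 0 h, 21.3 and 20.9 after 0.5 h, 19.1 and 21.0 after 1.5 h, 37.1 and 34.7 after 3 h, 182 and 190.0 after 6 h, 44.98 and 47.0 after 24 h, 44.5 and 44.8 after 48 h, and 39.7 and 36.1 after 72 h. Libraries at 6 h were far above all others, and every library from 3 h on was above every library before it. Its log2 fold change was 0.72 at 3 h (adjusted p = 3.10e-05), 3.09 after 6 h (SE 0.10, adjusted p = 1.43e-11), 8.52-fold higher, and 0.80 after 72 h (adjusted p = 5.62e-06). From 6 to 24 h it fell by 2.01 (SE 0.09, adjusted p = 1.61e-09).

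The GINS3 peak was carried by coding transcripts. GINS3-201 went from 8.40 ± 0.37 TPM at 0 h to 73.4 ± 2.7 after 6 h and 20.5 ± 1.2 after 24 h, and all coding transcripts of at least 1000 nt from 11.5 ± 0.61 to 101 ± 3.8 and 29.2 ± 1.1. The retained-intron transcript GINS3-206 went from 22.5% of the gene's reads at 0 h to 7.31% at 6 h. With counts derived from the gene's TPM the value at 6 h was 2.03 (adjusted p = 4.23e-09), and the later rises were not called, at 0.17 for 24 h (adjusted p = 0.25) and 0.08 for 72 h (adjusted p = 0.61).

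The other GINS subunits did not share the peak. GINS1 fell by 0.57 at 6 h and 1.30 after 24 h, GINS2 by 0.76 and 1.69, and GINS4 was at 0.03 after 6 h (−0.34 when scaled to total counts) and fell by 0.46 after 24 h. In TPM of coding transcripts GINS3 was the lowest of the 6 helicase-activation genes at 0 h and, from 6 h, second only to CDC45 at the 3 later times compared (6, 24 and 72 h).

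CDC45, the partner of GINS in the active helicase, had the highest TPM of this group at 0, 6, 24 and 72 h. It was at 248 and 292 CPM at 0 h, 243 and 249 after 0.5 h, 246 and 263 after 1.5 h, 306 and 273 after 3 h, 184 and 197 after 6 h, 82.3 and 86.5 after 24 h, 126 and 128 after 48 h, and 103 and 96.2 after 72 h. The libraries from 24 h on lay under all earlier ones. This was a log2 fold change of −0.50 at 6 h (SE 0.10, adjusted p = 5.31e-04) and −1.68 at 24 h (SE 0.10, adjusted p = 7.18e-09). MCM10, which helps to start unwinding, was lower at 3 h (−0.53), not called after 6 h (−0.23, adjusted p = 0.067), and lower after 24 h (−1.03).

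MCM8 encodes a helicase outside the MCM2-7 ring, known for its part in recombination. It was at 71.6 and 65.3 CPM at 0 h, 78.4 and 79.3 after 0.5 h, 78.5 and 83.2 after 1.5 h, 88.5 and 94.0 after 3 h, 82.2 and 86.8 after 6 h, 48.4 and 47.1 after 24 h, 68.2 and 65.8 after 48 h, and 61.9 and 57.6 after 72 h. The 3 h libraries were the highest and the 24 h libraries the lowest. The rise at 6 h was 0.30 (SE 0.08, adjusted p = 0.0057), but it was −0.06 when libraries were scaled to total counts (adjusted p = 0.56) and lost its call without 6 h replicate 2 (adjusted p = 0.065). The fall at 24 h was 0.52 on the log2 scale (SE 0.08, adjusted p = 1.03e-04).

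**Figure D3:**
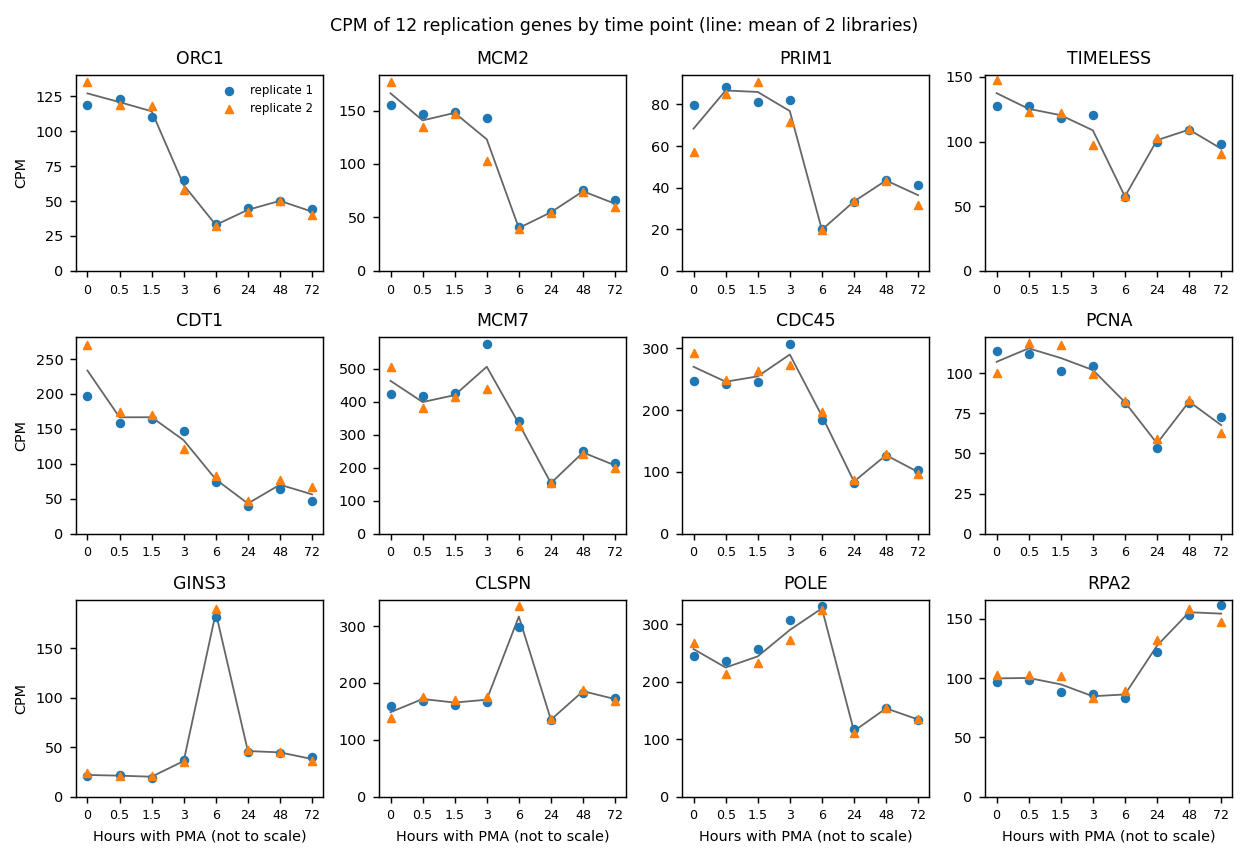
CPM (vertical axes from 0) of 12 replication genes at 8 times with PMA, with circles for replicate 1, triangles for replicate 2 and lines through the means. ORC1, MCM2, PRIM1 and TIMELESS are lowest at 6 h, CDT1, MCM7, CDC45 and PCNA after 24 h, GINS3 and CLSPN peak after 6 h, POLE falls after 6 h and RPA2 is higher from 24 h on.

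Polymerase alpha-primase makes the RNA-DNA primer of every Okazaki fragment, and its subunits parted at 6 h. PRIM1, the catalytic primase, was at 79.6 and 57.1 CPM at 0 h, 88.2 and 85.2 after 0.5 h, 81.1 and 90.8 after 1.5 h, 82.0 and 71.6 after 3 h, 19.9 and 19.6 after 6 h, 33.3 and 33.4 after 24 h, 43.7 and 43.2 after 48 h, and 41.1 and 31.7 after 72 h. The drop came between 3 and 6 h (−1.96, SE 0.15, adjusted p = 3.24e-07), and no library from 6 h on reached the lower 0 h library. From 6 to 24 h it rose by 0.76 (adjusted p = 8.68e-04). PRIM1 overlaps NACA and HSD17B6 in the annotation, and reads of overlapping genes cannot be told apart without strand.

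POLA1, the catalytic DNA polymerase subunit, was at 94.3 and 83.1 CPM at 0 h, 103 and 103 after 0.5 h, 104 and 109 after 1.5 h, 120.3 and 121 after 3 h, 116 and 117 after 6 h, 72.5 and 68.7 after 24 h, 81.3 and 82.2 after 48 h, and 79.1 and 64.5 after 72 h. The 3 and 6 h libraries were the highest and the 24 h libraries were under both at 0 h. The rise at 6 h was 0.39 (SE 0.10, adjusted p = 0.0032), and it was 0.03 when scaled to total counts (adjusted p = 0.83). The fall at 24 h was 0.33 on the log2 scale (adjusted p = 0.011), a call that was lost without 0 h replicate 1 and without 24 h replicate 2. POLA2, the regulatory subunit, fell by 0.94 at 3 h, 1.64 after 6 h and 1.01 after 24 h, and PRIM2 by 0.33 after 6 h and 0.45 after 24 h.

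Among the 5 genes of polymerases delta and epsilon, 4 fell (background 29.4%) and 1 rose (27.8%) at 6 h, and 5 fell at 24 h (26.6%). POLD1, the catalytic subunit of polymerase delta, was at 151 and 193 CPM at 0 h, 130.2 and 116 after 0.5 h, 125 and 118 after 1.5 h, 169.7 and 113 after 3 h, 73.3 and 73.5 after 6 h, 50.2 and 51.7 after 24 h, 79.0 and 77.2 after 48 h, and 54.6 and 63.9 after 72 h. All libraries from 6 h on were under all earlier ones. The fitted change (log2) was −1.23 at 6 h (SE 0.16, adjusted p = 1.73e-05) and −1.75 at 24 h (SE 0.16, adjusted p = 7.06e-07).

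POLE, the catalytic subunit of polymerase epsilon, was at 246 and 268 CPM at 0 h, 236 and 213 after 0.5 h, 256 and 232 after 1.5 h, 307 and 273 after 3 h, 331 and 324 after 6 h, 117 and 111 after 24 h, 154 and 154 after 48 h, and 134 and 134 after 72 h. The 6 h pair was the highest and the 24 h pair the lowest, with no overlap with 0 h. The rise at 6 h was 0.35 (SE 0.09, adjusted p = 0.0046), but it was −0.01 when scaled to total counts (adjusted p = 0.91). The fall from 6 to 24 h was 1.52 on the log2 scale (SE 0.09, adjusted p = 2.31e-08) and that at 24 h against 0 h was 1.17 (adjusted p = 1.33e-07).

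The accessory subunits were lower as well. POLD2 fell by 1.29 at 6 h and 1.44 after 72 h, POLE2 by 0.58 and 0.86, and POLD3 was lowest after 3 h (−1.06, SE 0.10, adjusted p = 2.26e-06) and at −0.46 by 6 h.

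Of the PCNA clamp and the 5 subunits of its loader, 5 of the 6 genes fell at 6 h (background 29.4%) and 5 at 24 h (26.6%). PCNA, the ring that holds polymerases on DNA, was at 114 and 100.2 CPM at 0 h, 112 and 119 after 0.5 h, 101 and 117 after 1.5 h, 104 and 99.6 after 3 h, 81.4 and 82.3 after 6 h, 53.5 and 59.0 after 24 h, 81.4 and 83.0 after 48 h, and 72.7 and 62.5 after 72 h. The 24 h libraries were the lowest, and no library from 6 h on reached the lower 0 h library. On the log2 scale the change was −0.39 at 6 h (adjusted p = 0.0054, and 0.059 and 0.050 without 6 h replicate 1 or 2) and −0.93 at 24 h (SE 0.10, adjusted p = 4.22e-06).

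RFC3, a subunit of the clamp loader, had the widest range of this group. It was at 52.6 and 38.1 CPM at 0 h, 56.5 and 49.8 after 0.5 h, 51.3 and 50.4 after 1.5 h, 42.0 and 33.5 after 3 h, 36.9 and 31.8 after 6 h, 19.3 and 19.4 after 24 h, 24.1 and 23.4 after 48 h, and 25.5 and 18.2 after 72 h. Libraries from 24 h on were under all earlier ones. Its log2 fold change was −0.40 at 6 h (adjusted p = 0.060) and −1.23 at 24 h (SE 0.17, adjusted p = 3.87e-05). RFC4 and RFC5 fell at 6 h (−1.04 and −0.97) and after 24 h (−0.93 and −0.68), and RFC1 and RFC2 fell by 0.37 and 0.36 after 6 h.

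Of the 3 genes that finish Okazaki fragments, 1 fell at 6 h (background 29.4%) and 3 at 24 h (26.6%). The share at 6 h was near the background. DNA2, a nuclease and helicase that trims long flaps, was at 83.1 and 57.6 CPM at 0 h, 87.9 and 81.6 after 0.5 h, 83.1 and 80.3 after 1.5 h, 83.4 and 71.5 after 3 h, 58.9 and 53.9 after 6 h, 36.5 and 31.6 after 24 h, 46.8 and 40.0 after 48 h, and 44.4 and 32.7 after 72 h. The 6 h libraries overlapped the 0 h range, and those from 24 h on were under it (24 h: −1.05, SE 0.17, adjusted p = 1.44e-04). FEN1, the flap nuclease, was among the steadiest genes, at 99.0 and 109 CPM at 0 h, 96.4 and 94.4 after 0.5 h, 95.0 and 95.7 after 1.5 h, 104 and 85.7 after 3 h, 96.0 and 92.0 after 6 h, 77.2 and 80.5 after 24 h, 119 and 122 after 48 h, and 106 and 92.3 after 72 h. It was called lower at 24 h (−0.40, SE 0.10, adjusted p = 0.0038) and at no other time against 0 h, and it overlaps FADS2 and TMEM258 in the annotation. LIG1, which seals the nicks, fell by 0.47 at 6 h (−0.12 with GC trends removed, adjusted p = 0.14) and 0.69 at 24 h.

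The 3 subunits of RPA, which work as 1 complex on single-stranded DNA, went 3 ways. RPA2, the subunit that checkpoint kinases phosphorylate, rose late. It was at 96.6 and 103 CPM at 0 h, 98.0 and 102 after 0.5 h, 87.8 and 102 after 1.5 h, 86.5 and 82.8 after 3 h, 83.5 and 88.9 after 6 h, 122 and 133 after 24 h, 153 and 158 after 48 h, and 162 and 147 after 72 h. Every library from 24 h on was above every earlier one. This was a log2 fold change of 0.35 at 24 h (SE 0.09, adjusted p = 0.0051; 0.10 when scaled to total counts, adjusted p = 0.23, and 0.26 without 24 h replicate 2, adjusted p = 0.091), 0.64 after 48 h (adjusted p = 4.83e-05) and 0.63 after 72 h (SE 0.09, adjusted p = 4.93e-05).

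RPA1, the large DNA-binding subunit, dipped at 6 h (−0.81, SE 0.10, adjusted p = 1.22e-05), rose from 6 to 24 h (0.67, adjusted p = 9.09e-05) and was not called at 24 or 72 h (−0.14 and −0.12). RPA3, the smallest subunit, was lower at 24 h (−0.61, SE 0.24, adjusted p = 0.044) and 72 h (−0.78, adjusted p = 0.014), calls that were lost without 0 h replicate 2 (adjusted p = 0.13 and 0.053), and it overlaps UMAD1. In TPM of coding transcripts RPA2 was at 14.2 times RPA3 at 0 h and 28.9 times after 72 h, and RPA3 at 0 h had an SD of 4.3 around a mean of 7.61.

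TIMELESS, TIPIN and CLSPN travel with the fork and pass stalling signals to the checkpoint, and CLSPN parted from its partners. TIMELESS was at 127 and 147 CPM at 0 h, 128 and 123 after 0.5 h, 118 and 122 after 1.5 h, 120.1 and 97.1 after 3 h, 56.9 and 58.2 after 6 h, 99.7 and 102 after 24 h, 109 and 109.7 after 48 h, and 98.3 and 90.7 after 72 h. Libraries at 6 h lay apart from all others, and the later ones stayed under both 0 h libraries. The fitted change (log2) was −1.25 at 6 h (SE 0.11, adjusted p = 1.95e-07) and 0.81 from 6 to 24 h (SE 0.10, adjusted p = 2.00e-05). TIPIN, its binding partner, fell by 0.66 at 6 h and rose by 0.34 from 6 to 24 h.

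CLSPN, the adaptor that lets ATR activate CHEK1, was at 159 and 138 CPM at 0 h, 168 and 176 after 0.5 h, 161 and 170.3 after 1.5 h, 166 and 175 after 3 h, 298 and 336 after 6 h, 134 and 136 after 24 h, 183 and 189 after 48 h, and 174 and 169 after 72 h. The 6 h libraries were above all others. On the log2 scale the change was 1.09 at 6 h (SE 0.09, adjusted p = 1.97e-07), 2.13-fold higher, and −1.23 from 6 to 24 h (SE 0.09, adjusted p = 1.37e-07). The 24 h libraries were just under those at 0 h without passing the test (−0.13, adjusted p = 0.22). The transcript CLSPN-206 took 1.71% of the gene's reads at 0 h and 11.1% at 6 h, while CLSPN-202 took 65.6 and 55.9%.

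The 5 genes that rose at 6 h thus were GINS3, CLSPN, POLA1, POLE and MCM8, with log2 fold changes of 3.09, 1.09, 0.39, 0.35 and 0.30. When libraries were scaled to total counts, the median of all genes at 6 h moved from 0.00 to −0.35. Under this scaling 2 of the replication genes rose and 38 fell at 6 h. POLE and MCM8 changed sign, and POLA1 was no longer called. The share of all genes called under this scaling is not given here, so these counts describe the replication genes alone. From 6 to 24 h the same 5 genes were at −2.01, −1.23, −0.72, −1.52 and −0.82, values that share the 6 h libraries with the first.

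**Figure D4:**
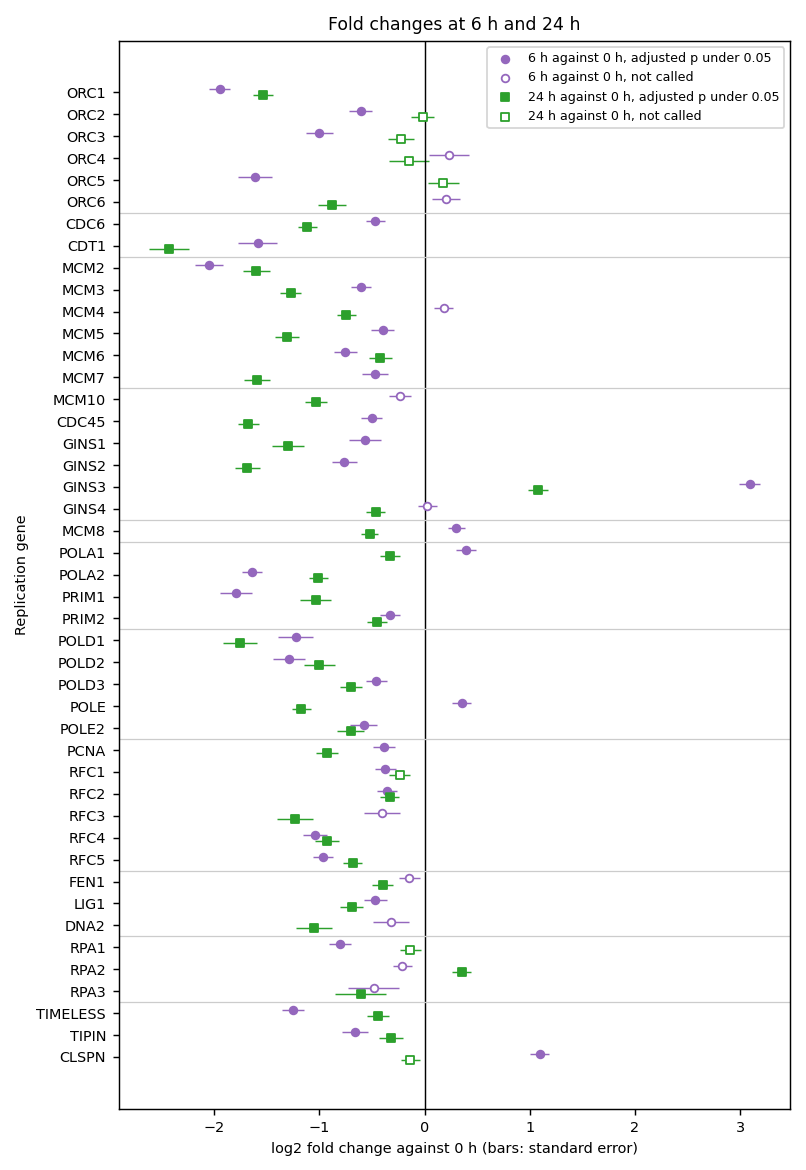
Log2 fold change against 0 h at 6 h (circles) and 24 h (squares) for the 45 replication genes, with bars of 1 standard error and filled symbols for an edgeR adjusted p under 0.05. Most genes lie left of 0 at both times, and the filled circles to its right are GINS3, CLSPN, POLA1, POLE and MCM8. When libraries are scaled to total counts, POLE and MCM8 change sign and POLA1 is not called.

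The course was then set beside the promoter letters shown above. Of the 20 genes with E2F letters, 14 fell and 5 rose at 6 h (median log2 fold change −0.52, against a background of 29.4% lower and 27.8% higher), 17 fell and 1 rose at 24 h (−0.97, background 26.6% and 31.7%), and 13 fell and 5 rose from 6 to 24 h (−0.70, background 25.8% and 30.8%). Of the 18 genes with a window but without these letters, 14 fell at 6 h (median −0.71), 13 at 24 h (−0.57), and 5 fell and 7 rose from 6 to 24 h (0.12). The shares that rose at 6 h with the letters, and from 6 to 24 h with or without them, lie near the background. The share that fell from 6 to 24 h without the letters is near it as well. Of the 5 genes that rose at 6 h, POLE and MCM8 changed sign and POLA1 lost its call when libraries were scaled to total counts. All 5 carry the letters. So does MCM2, the deepest fall at 6 h, while ORC1 and PRIM1, among the next deepest, hold them only without the first T. The 7 genes without a window are in neither group, and no test was made of this split.

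The partners of the machinery were drawn from a list of 48 E2F and RB family genes, licensing factors and S-phase enzymes that are not among the 45. At 6 h 19 fell and 10 rose (median −0.12, background 29.4% lower and 27.8% higher), at 24 h 29 fell and 9 rose (−0.54, background 26.6% and 31.7%), and at 72 h 28 fell and 10 rose (−0.48, background 26.9% and 31.7%). E2F2, an activator of S-phase genes, fell by 2.92 at 6 h (SE 0.11, adjusted p = 6.70e-11), from 68.9 and 80.7 CPM to 9.37 and 10.3. E2F1, of the same class, was at −0.05 at 6 h (adjusted p = 0.76) and −1.14 at 24 h (SE 0.13, adjusted p = 6.15e-06). Of the genes that act beside members of the set, TICRR, which helps CDC45 to load, fell by 1.71 at 24 h, and POLD4, the small subunit of polymerase delta, rose by 1.28 (SE 0.16, adjusted p = 1.37e-05). RRM2, the regulated subunit of the ribonucleotide reductase that makes deoxynucleotides, was the only gene of the 48 called at 0.5 h (0.80, adjusted p = 0.0011). Fold changes at 0.5 h correlated with transcript GC content at r = −0.76 across 9975 genes, and the part of this in RRM2 was not tested. After 6 h RRM2 was at 541 and 595.5 CPM against 96.1 and 99.8 at 0 h (2.54, SE 0.10, adjusted p = 7.26e-11).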

How the data were processed

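RNA of 16 K562 libraries was measured. The deposited tables hold, per the file headers, an estimated count of reads, TPM and an effective length for each of 177456 transcripts, made by the authors with Salmon, per the submitters' processing notes, which also list Trim Galore 0.4.3, HISAT2 2.1.0, DESeq2 and the builds hg19 and hg38 without saying which step used which. The transcript set, strand setting and Salmon version are not given in the sources used here. Transcripts were assigned to genes by identifier with GENCODE 29 (GRCh38), which matched 167027 of them (94.1%), and the estimated counts were summed per gene and rounded. TPM levels in the text are sums over coding transcripts of at least 1000 nt, or single transcripts where named.

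Groups came from the labels' time points. edgeR 4.0.16 (R 4.3.3) normalised with TMM, kept 17559 genes with filterByExpr, and fitted 1 quasi-likelihood model over all libraries (common coefficient of variation 0.123). Each adjusted p is from its test with Benjamini-Hochberg adjustment over all genes within a comparison, called under 0.05, and fold changes carry a prior count of 0.125. In data simulated for 72 against 0 h (17040 genes), 62 of 100 genes changed 2-fold and 84 of 100 changed 4-fold were recovered, with 9 false among 155 calls. The simulation changed few genes and held no GC trend, while 58.6% of genes were called at 72 h in the data. These shares therefore need not hold for the calls reported here. Alternatives were DESeq2 1.42.0, other scalings and filters, removal of GC trends, 1.5 h as baseline, counts from TPM, a replicate block, and leaving out each library.

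The genes, role groups and other lists were chosen with earlier results of these data known, so no list was tested. Values in every library are given for the gene with the widest range and that with the highest mean TPM over all its transcripts, non-coding ones included, in each role group, and for genes called against their group's median. ORC5 and the named genes of the other lists were added after their values were seen. Genes that overlap others, or share reads with a copy, are uncertain.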

Additional observations from a re-analysis of the deposited data

How the results depend on the processing

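Counts of replication genes called at 6, 24, 48 and 72 h against 0 h, between 3 and 6 h, between 6 and 24 h and over the whole course stayed within 1.5 times the reported count under every alternative run. At 0.5 h the count of 0 became 4 with no low-count filter, and ran from 0 to 11 when single libraries were left out. The 2 genes called at 1.5 h became 0 with DESeq2 size factors, at an adjusted p under 0.01 and in a fit to the compared time points, 1 with GC trends removed, 5 with no low-count filter and 10 with total count scaling, and ran from 0 to 12 when single libraries were left out. The 16 called at 3 h became 8 in a fit to the compared time points, 29 with GC trends removed and 30 with total count scaling. The 10 called from 24 to 72 h became 2 at an adjusted p under 0.01, 4 with counts from TPM, 3 in a fit to the compared time points and 22 with GC trends removed, and ran from 3 to 12 when single libraries were left out. With the replicate block the counts were 4 at 1.5 h, 17 after 3 h, 38 after 6 h, 38 after 24 h and 37 after 72 h, and with the replicate block and GC trends removed together 30 at 3 h and 25 from 24 to 72 h. Same-numbered libraries deviated together in 24 of 28 pairs of time points (correlation over 0.1) and not in the others. The median correlation was 0.27, the highest 0.60 and the lowest −0.30. The main fit held no replicate block, so a deviation shared by same-numbered libraries stayed in its spread. Total count scaling moved the median of all genes to −0.28 at 3 h, −0.35 at 6 h and −0.26 at 24 h, and turned the sign of CDC6 at 3 h (−0.19) and of GINS4 (−0.34), MCM4 (−0.18), MCM8 (−0.065) and POLE (−0.013) at 6 h, and of ORC4 (−0.14) and ORC6 (−0.17) at 6 h and ORC5 (−0.07) at 24 h, which were called under neither scaling. The causes of these differences were not tested. The lowest count of any of the 45 genes in any library was 252 reads, and 2 libraries for each time point limit the precision of every value.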

Other observations

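Mitotic genes, which act after replication, were measured from a list of 24. At 1.5 h 11 of them rose and none fell (median log2 fold change 0.39, against a background of 9.05% higher and 8.05% lower), led by CENPE, a kinetochore motor (0.98, edgeR adjusted p = 0.0073), and AURKA, a spindle kinase (0.76, edgeR adjusted p = 7.2e-05). Fold changes at 1.5 h correlated with transcript GC content at r = −0.43 across 9975 genes, and the part of this in the mitotic genes was not tested. At 6 h 13 of the 24 fell and 4 rose (median −0.38, background 29.4% lower and 27.8% higher), at 24 h 20 fell and 1, AURKA, rose (−0.85, background 26.6% and 31.7%), and from 24 to 72 h 14 rose and 1, UBE2C, fell (0.40, background 13.9% higher and 12.4% lower). CENPA, the histone of the centromere, fell by 2.01 at 6 h and 2.17 at 24 h on the log2 scale. MKI67, a common marker of dividing cells, rose by 0.89 at 6 h and fell by 0.56 at 24 h.

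Of 13 cyclins, cyclin-dependent kinases and their inhibitors, 5 fell and 4 rose at 6 h (background 29.4% lower and 27.8% higher), and 6 fell and 5 rose at 72 h (background 26.9% and 31.7%), so the shares that rose are near the background. CDKN1A, which encodes the p21 inhibitor, rose by 5.00 at 6 h (SE 0.17, edgeR adjusted p = 2.43e-11) and stood at 2.69 at 72 h. The D-type cyclins went separate ways, with CCND1 at 4.81, CCND3 at 1.09 and CCND2 at −3.48 at 72 h, while the kinase they bind, CDK4, was at −1.48. CCNE2, a cyclin of S-phase entry, rose by 1.04 at 6 h and 1.06 at 72 h.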
